A study of Nematostella vectensis with 10 samples.

Results

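The genes described here are the COUP-type nuclear receptor genes in the study's list of published and newly named cnidocyte genes of the sea anemone *Nematostella vectensis*. They are *coup-like1* (NV2.23247, 2 annotated transcripts) and *coup-like2* (NV2.1477, 1 annotated transcript), taken by their gene numbers. They make up 2 of the 24520 genes and 3 of the 35819 transcripts in the deposited files. The study knocked down *Nvznf845*, a zinc finger gene, and sequenced polyadenylated RNA of whole embryos in 10 libraries. One group of 5 libraries came from wildtype embryos injected with *Nvznf845* shRNA, and the other 5 came from wildtype embryos injected with the control, which the labels call a scramble RNA and the methods an shRNA. All embryos were raised at 24 °C and collected as gastrulae at 28 hours post fertilization (hpf), with about 1000 embryos per library. A single shRNA was used against *Nvznf845*, and each library is a pool of embryos. Knockdown and control libraries with the same replicate number are treated as a pair. The list marks both COUP genes as responding to *Nvznf845* knockdown, and that mark rests on these same libraries, so the falls given here are not independent evidence for it.

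COUP transcription factors (the NR2F group) are nuclear receptors that bind DNA through paired zinc fingers and are called orphan receptors because no natural ligand is settled. In *Drosophila* the family member seven-up helps to set photoreceptor fates, and the vertebrate members act in the development of the nervous system, the heart and the vessels. Cnidocytes are the stinging cells of cnidarians. They arise with neurons from a shared pool of progenitors, and their capsules are built largely from minicollagens.

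The libraries held between 18891111 and 49293261 estimated reads. The pair numbered 3 stood apart, because its 10 most abundant genes took 67.4% of the counts in the knockdown library and 56.0% in the control library, against 6.24% to 33.3% elsewhere. After TMM scaling, the knockdown library of that pair was the shallowest, with an effective size of 13091187 reads. The targeted gene, *Nvznf845*, was lower in all 5 pairs and kept 18.5% of its mean control level (log2 fold change −2.42, SE 0.16, adjusted p = 5.06e-07, edgeR quasi-likelihood test). The embryos carried cnidocyte transcripts: all 15 cnidocyte marker genes of the list were detected in the controls, with a summed level of 958 to 1344 CPM. CPM here are counts scaled by the TMM-adjusted size of each library.

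Both COUP genes fell after *Nvznf845* knockdown, in every pair of libraries. *coup-like1* kept 13.1% of its mean control level and *coup-like2* kept 8.73%. In the 5 control libraries, in the order of replicates 1 to 5, *coup-like1* was measured at 61.3, 70.3, 43.0, 54.4 and 58.2 CPM, a mean of 57.4 ± 9.99 (SD, n = 5). In the 5 knockdown libraries it was at 8.45, 9.03, 4.89, 8.55 and 6.59 CPM, a mean of 7.50 ± 1.73 (SD, n = 5). The groups lay well apart: the lowest control library was 4.76 times the highest knockdown library, and replicate 3 was the lowest library in both groups. The log2 fold change was −2.93 (SE 0.19, 95% interval −3.34 to −2.52, adjusted p = 4.35e-07, edgeR quasi-likelihood test with Benjamini-Hochberg adjustment over 19001 genes).

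*coup-like2* was the scarcer gene and the gap between its groups was wider. Its control libraries gave 10.2, 9.21, 6.44, 6.06 and 7.30 CPM (mean 7.84 ± 1.80, SD, n = 5). Its knockdown libraries gave 0.701, 0.556, 0.764, 0.811 and 0.592 CPM (mean 0.685 ± 0.109, SD, n = 5). No knockdown library came near the controls, since the lowest control library was 7.47 times the highest knockdown library. The log2 fold change was −3.52 (SE 0.21, 95% interval −3.98 to −3.06, adjusted p = 2.35e-07, edgeR as before).

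Among all 19001 genes tested, 4.23% were called lower and 1.21% higher, and both COUP genes were called lower. A call needed an adjusted p no higher than 0.05 together with a log2 fold change beyond 0.585 in either direction. Complete separation of the groups, with every knockdown library below every control library, occurred in 4.75% of tested genes, COUP genes and *Nvznf845* included. The median log2 fold change was 0.0099 over all tested genes and −3.57 over the 803 genes called lower. The falls of the COUP genes were therefore of middling size among the called genes: 481 of them fell further than *coup-like1* and 408 fell further than *coup-like2*. In whole embryos, fewer cells that express a gene and less RNA of that gene per cell cannot be told apart.

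**Figure D1:**
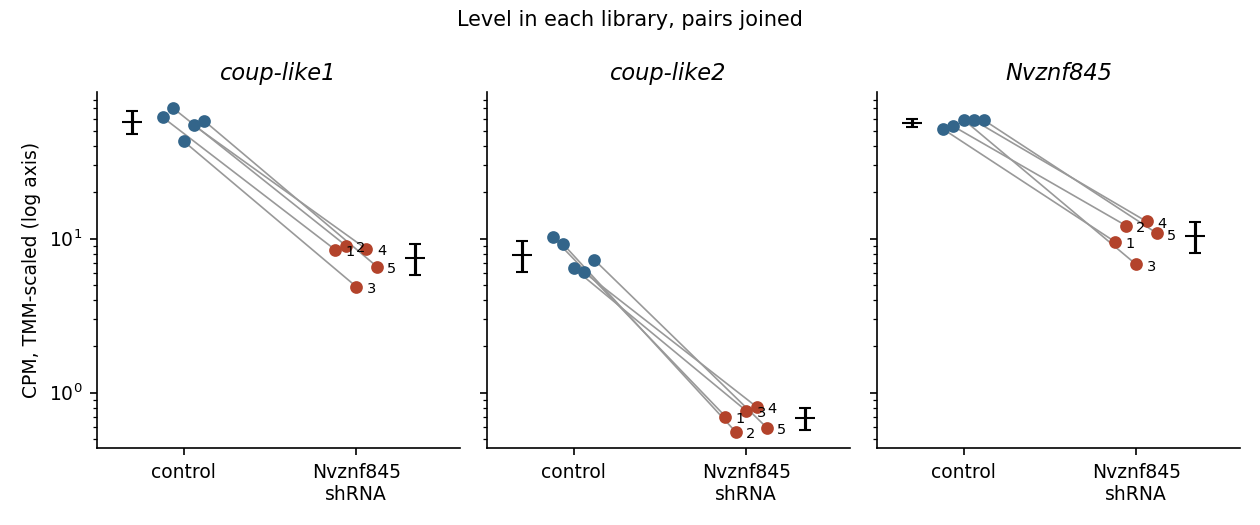
The level of *coup-like1*, *coup-like2* and the targeted gene *Nvznf845* in each of the 10 libraries, in TMM-scaled CPM on a log axis, with grey lines joining the control and knockdown library of a pair and small numbers giving the replicate; black bars show mean ± SD (n = 5). All lines run downward, from a mean of 57.4 to 7.50 CPM for *coup-like1* and from 7.84 to 0.685 CPM for *coup-like2*.

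Within pairs the fall of *coup-like1* was the steadier. The log2 ratio of knockdown to control CPM was −2.86, −2.96, −3.14, −2.67 and −3.14 in pairs 1 to 5 for *coup-like1*, an SD of 0.20. For *coup-like2* it was −3.86, −4.05, −3.08, −2.90 and −3.62, an SD of 0.50. Thus *coup-like1* kept between 11.3% and 15.7% of its paired control, and *coup-like2* between 6.03% and 13.4%. These spreads include counting error, a coefficient of variation of 24.8% for *coup-like2* and 8.06% for *coup-like1* in the knockdown group. How much of the wider spread of *coup-like2* it makes up was not tested. The ratios of pairs 4 and 5, which share a batch in the labels, differed by less for *coup-like1* than for *coup-like2*. For *coup-like1* these pairs nevertheless held the highest and the lowest of the 5 ratios. With pair 3 left out, the log2 fold changes were −2.91 for *coup-like1* (adjusted p = 4.04e-07) and −3.63 for *coup-like2* (adjusted p = 3.01e-06). In the batch with 2 pairs alone they were −2.91 (adjusted p = 6.49e-05) and −3.28 (adjusted p = 3.63e-04), both by edgeR.

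The depth behind these values differed between the genes. The 5 knockdown libraries held 193, 276, 64, 232 and 267 counts of *coup-like1* and 16, 17, 10, 22 and 24 counts of *coup-like2*. For *coup-like2* this means that counting error alone gives a coefficient of variation of 24.8% in the knockdown group, above the 15.9% observed, so that no biological spread could be seen there. For *coup-like1* the observed coefficient of variation was 23.1% against 8.06% from counting. In the controls, where *coup-like1* had 1235 to 2321 counts and *coup-like2* had 185 to 291, the observed spread of 17.4% and 22.9% exceeded the counting error of 2.49% and 6.73%.

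Per length, *coup-like1* was the more abundant COUP gene in all 10 libraries. On the TPM scale its controls read 47.7, 68.7, 25.9, 63.8 and 66.3, and its knockdown libraries 7.35, 10.2, 1.78, 8.89 and 7.90. The corresponding values of *coup-like2* were 10.9, 12.5, 5.33, 9.66 and 11.4 TPM in the controls and 0.823, 0.863, 0.389, 1.15 and 0.986 TPM after knockdown. Pair 3 was the lowest in both groups and for both genes on this scale, which is not corrected for the share of counts taken by abundant genes. The ratio of *coup-like1* to *coup-like2* TPM was 4.38 to 6.61 in the controls (mean 5.43 ± 0.86, SD, n = 5) and 4.59 to 11.8 in the knockdown libraries (mean 8.20 ± 2.58, SD, n = 5). These ranges overlapped, through the knockdown library of pair 3 with its ratio of 4.59.

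Whether the genes fell by different amounts was tested on the log2 ratio of their counts within each library. The fall of *coup-like1* was smaller by 0.51 on the log2 scale, with the same direction in 4 of 5 pairs and the opposite in pair 3. This difference did not pass (adjusted p = 0.0769 over 14 tests, two-sided exact permutation test over 252 splits, 95% interval −0.050 to 1.01). The interval reaches from near 0 to a 2-fold change of the ratio, and pair 3 decided the call. Without its knockdown library the difference was 0.71 (adjusted p = 0.0111, exact permutation test), and without both of its libraries it was 0.67 (adjusted p = 0.0333, exact permutation test). The knockdown library of pair 3 held only 64 counts of *coup-like1* and 10 of *coup-like2*, so counting error weighs most on its ratio.

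The 2 transcripts of *coup-like1* differ in length by 147 bases, with 1845 bases in the first and 1992 in the second. The second carried most of the gene's counts in the controls, at 34.1 to 61.5 CPM against 8.83 to 15.5 CPM for the first. After knockdown the second transcript was at 4.89 to 7.52 CPM, and it fell with a log2 fold change of −2.92 (SE 0.19, adjusted p = 2.82e-06, edgeR over 25465 transcripts, of which 3.32% were called lower). The first transcript had almost the same fold change, −2.97, but with a wide error (SE 0.71, 95% interval −4.54 to −1.40, adjusted p = 0.0426). That call is fragile. It was lost with the replicate block (−3.40, adjusted p = 0.0758, edgeR), and in 8 of the 10 fits that each left out a single library. Only the fits without knockdown replicate 1 (adjusted p = 0.0297, edgeR) or without knockdown replicate 3 (adjusted p = 0.00758, edgeR) kept it. Over all 10 of these fits the adjusted p ran from 0.00758 to 0.109 (edgeR).

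The split between the transcripts varied widely among knockdown libraries. The first transcript took 25.3%, 12.6%, 20.6%, 27.9% and 23.5% of *coup-like1* counts in control replicates 1 to 5. In the knockdown libraries it took 41.5%, 16.5%, 0%, 24.8% and 9.66%. The control range thus lay inside the knockdown range, whose ends were replicate 1 (95% Wilson interval 34.7% to 48.5%) and replicate 3, where 0 of 64 counts allow a share of up to 4.69% by a floor of 3 counts (5.66% is the upper end of the Wilson interval). These limits cover counting error only, and the shares are Salmon's own division of reads that fit both transcripts. The mean share was 18.5% ± 15.8 after knockdown and 22.0% ± 5.88 in controls (SD, n = 5), a difference of −3.45 percentage points (p = 0.667, adjusted p = 0.667, exact permutation test, 95% interval −20.5 to 15.1). No change in the split was detectable, and shifts within that interval could not be seen at this spread. The direction itself rests on knockdown replicate 3, since the difference was 1.17 points without that library.

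**Figure D2:**
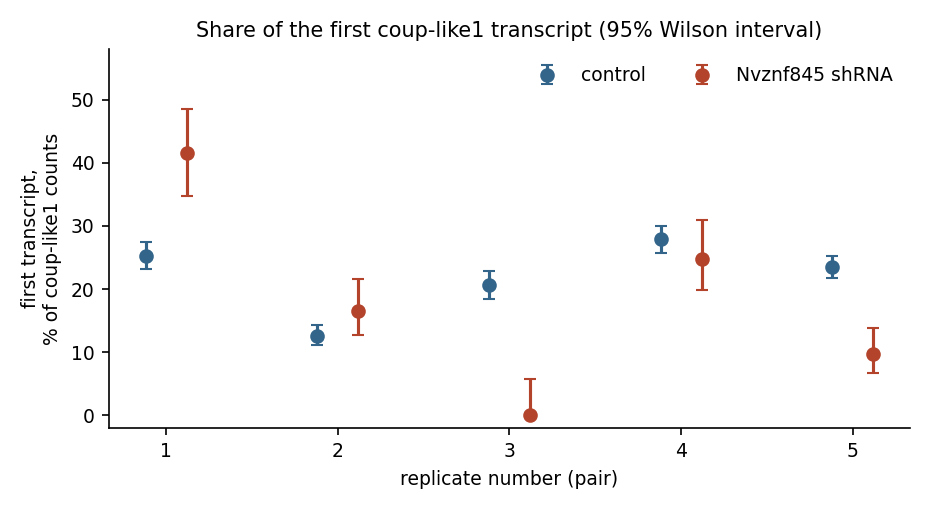
The share of *coup-like1* counts given to its first transcript, in percent, for the control (blue) and knockdown (red) library of each replicate number; bars are 95% Wilson intervals, which cover counting error only. Control shares sit between 12.6% and 27.9%, and knockdown shares range from 0% to 41.5%.

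Counts of *coup-like2* were whole numbers in 9 of 10 libraries (within 0.002 of a count). Those of *coup-like1* were whole in 3 of 10 libraries, with distances of up to 0.498 from a whole number. How many reads were shared with other genes cannot be read from these values.

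The other transcription factors of the list give the setting for these falls. Of 13 such genes with a gene number, *Nvznf845* and the COUP genes left out, all 13 were tested. Of these, 5 were called lower, 0 were called higher and 8 were not called, with a median log2 fold change of −0.54. Over all tested genes, 4.23% were called lower and 1.21% higher. The 5 were *NvpaxA*, a paired-domain factor known for its role in cnidocyte development (−5.74), *cnido-jun*, a bZIP factor (−6.59), the zinc finger gene *GFI1B-like3* (−2.22), the forkhead gene *foxL2* (−1.52) and the HMG-box gene *sox2* (−1.23). Each of the 5 carries the same mark in the study's list as the COUP genes. That mark rests on these same libraries, so the match is not independent evidence. Among those not called, the forkhead gene *NvfoxE-like* was at −0.54 (SE 0.14, adjusted p = 0.0425, edgeR). *ATF2-like1* was at −0.45 (SE 0.10, adjusted p = 0.0160, edgeR). Both were lower in 5 of 5 pairs and passed the limit on p, but missed the limit on fold change. On adjusted p alone, 7 of the 13 genes were lower. The forkhead gene *foxA* at −0.30 (SE 0.15, adjusted p = 0.468, edgeR) passed neither limit. Nor did the bZIP gene *cnido-fos* at −0.07 (SE 0.23, adjusted p = 0.974, edgeR) or *SoxA* at −0.37 (SE 0.21, adjusted p = 0.555, edgeR). With the opposite sign, *Nkx2.2D* was at 0.19 (SE 0.18, adjusted p = 0.820, edgeR) and *myc5* at 0.43 (SE 0.32, adjusted p = 0.728, edgeR). Each was lower in 2 of 5 pairs and was not called.

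**Figure D3:**
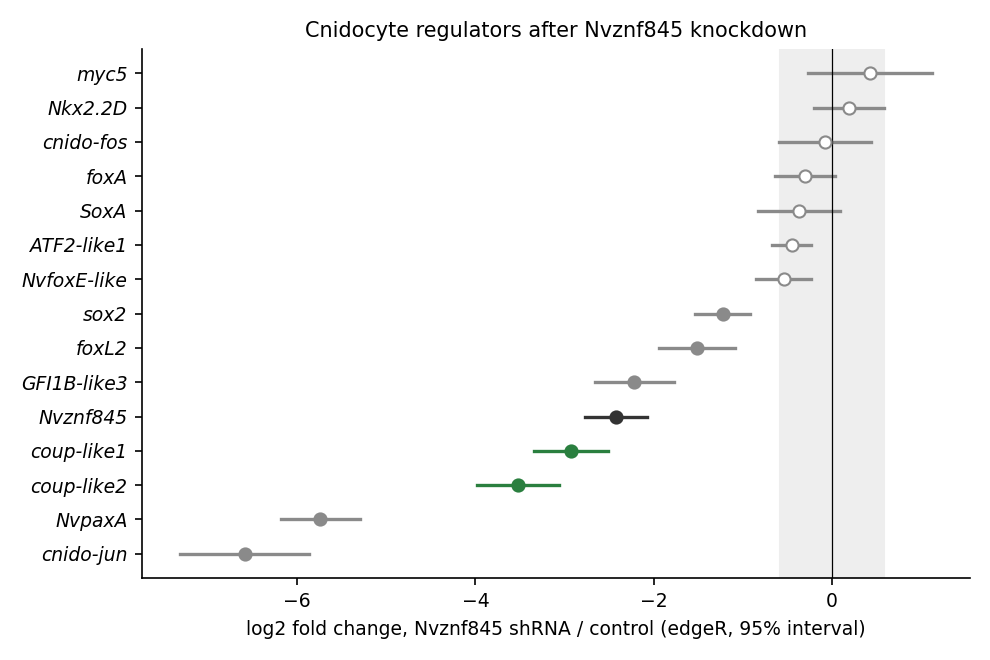
Log2 fold change with its 95% interval (edgeR) for the COUP genes (green), *Nvznf845* (black) and the other transcription factor genes of the list (grey); filled circles were called lower, open circles were not called, and the shaded band spans log2 fold changes within 0.585 of 0. *coup-like1* at −2.93 and *coup-like2* at −3.52 lie between *Nvznf845* at −2.42 and *NvpaxA* at −5.74.

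Within each library, the COUP genes were then set against the regulators with the same mark and against *Nvznf845*, in 12 log2 count ratios. Both fell less than *NvpaxA* and *cnido-jun*. Relative to *NvpaxA*, the ratio of *coup-like1* rose by 2.83 (95% interval 2.27 to 3.39) and that of *coup-like2* by 2.32 (95% interval 1.46 to 3.23). Relative to *cnido-jun* the rises were 3.63 and 3.11, and all 4 of these held in 5 of 5 pairs (adjusted p = 0.0123 each, exact permutation test, from a raw p of 0.00794, the smallest that 252 splits allow). Because *cnido-jun* was near the floor after knockdown, at a mean of 0.117 CPM, the size of its rises depends on the count added. They were 3.39 and 2.91 with 1 added, and 3.87 and 3.33 with 0.1 added.

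Both COUP genes fell further than *sox2* and *foxL2*. The difference from *sox2* was −1.73 for *coup-like1* and −2.25 for *coup-like2*, and the difference from *foxL2* was −1.45 and −1.96, in 5 of 5 pairs throughout (adjusted p = 0.0123 each, exact permutation test). *coup-like2* also fell further than *GFI1B-like3*, by 1.23 on the log2 scale (adjusted p = 0.0123, exact permutation test). For *coup-like1* that difference was −0.72 and did not pass (adjusted p = 0.0741, 4 of 5 pairs, exact permutation test, 95% interval −1.41 to 0.040). It passed without knockdown replicate 1, at −0.89 (adjusted p = 0.0222).

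Against the targeted gene itself the margins were narrower. *coup-like1* fell further than *Nvznf845* by 0.49 on the log2 scale in 5 of 5 pairs (adjusted p = 0.0303, exact permutation test, 95% interval −0.89 to −0.06), but by 0.01 in the pair with the smallest margin. This call was lost on leaving out any library other than knockdown replicate 1 or control replicate 3 (adjusted p up to 0.0707). *coup-like2* fell further than *Nvznf845* by 1.00 in 4 of 5 pairs (adjusted p = 0.0303, exact permutation test), a call lost without knockdown replicate 2, at −0.87 (adjusted p = 0.0505). Of the 12 ratios 11 passed over libraries, and 0 passed when signs were flipped within the 5 pairs (the replicate block), where the smallest possible p is 0.0625.

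Per length, *coup-like1* was among the most abundant of the 15 regulators with values here in the control embryos and dropped several places after knockdown. Its mean of 54.5 ± 18.0 TPM (SD, n = 5) was the 3rd highest, behind *foxA* at 131 ± 45.8 and *Nvznf845* at 71.6 ± 20.3. Below it came *sox2* and *NvpaxA*, with means of 47.5 and 45.2 TPM. *coup-like1* stood above *sox2* in all 5 control libraries and above *NvpaxA* in 4 of 5, so its order against *NvpaxA* was not the same in every library. After knockdown its mean of 7.22 ± 3.22 TPM ranked 7th, and it stood below *sox2* in all 5 libraries.

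*coup-like2* ranked 8th in the controls at 9.95 ± 2.78 TPM (SD, n = 5) and 13th after knockdown at 0.843 ± 0.285 TPM. In the controls its neighbours were *cnido-jun* at 8.87 ± 3.32 TPM and *GFI1B-like3* at 8.54 ± 3.39 TPM. It stood above them in 4 and 3 of 5 libraries, so these genes cannot be ordered. After knockdown it stood below *GFI1B-like3* in all 5 libraries and above *cnido-jun* in all 5. At that point it was near *NvpaxA*, at 0.855 ± 0.446 TPM, and above it in 2 of 5 libraries.

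The cnidocyte markers that could be tested were lower together with the COUP genes. Over all 15 markers, the summed level was 1123 ± 166 CPM in controls and 54.5 ± 7.38 CPM after knockdown (SD, n = 5, ranges 958 to 1344 and 42.4 to 60.0). Of this sum 4.86% was left, less than for either COUP gene. The sum mostly reflects abundant markers, such as *ncol3* at a mean of 388 CPM in controls. Single markers fell less than the COUP genes or further: *CALM3-like* went from 6.08 to 2.63 CPM and *ncol4* from 115 to 1.46 CPM. Of the 15 markers 12 were tested and all 12 were called lower, with log2 fold changes from −7.92 to −1.20 (median −4.80, against 0.0099 over all tested genes). The share called lower over all tested genes was 4.23%. All 12 carry the same mark in the study's list as the COUP genes. That mark rests on these same libraries, so these calls are not independent evidence. *Ncol* was at 0 in 4 knockdown libraries, while the minicollagen genes *ncol1*, *ncol3* and *ncol4* were detected in every library. The 3 markers too low to be tested did not share one pattern. *NEP3* was at a mean of 0.165 CPM in controls, near the limit of detection, and at 0 in all 5 knockdown libraries. *NEP8* was at 0.0844 CPM in controls and 0.0745 CPM after knockdown, and *Tx60B-like5* at 0.350 and 0.160 CPM. The part of the marker loss in the falls of the COUP genes was not tested.

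Genes with the most similar pattern were sought by the root mean square difference over the 10 libraries, with each pattern written as log2(CPM + 0.5) minus its own control mean. Among 16813 genes with at least 1 CPM in controls, those nearest to *coup-like1* were NV2.12616 (0.12), NV2.14236 (0.18), NV2.5100 (0.18), NV2.11056 (0.19) and NV2.5499 (0.20), none of which has a name in the list. NV2.12616 went from 26.1 ± 3.92 to 2.99 ± 0.710 CPM and NV2.14236 from 68.9 ± 10.8 to 8.08 ± 1.87 CPM (SD, n = 5). For *coup-like2* the nearest were NV2.13586 (0.16), NV2.11673 (0.17), NV2.9862 (0.17), *Ncol* (0.17) and NV2.2625 (0.17). The 0.5 CPM added before the log flattens low genes, which is how *Ncol*, with a fitted log2 fold change of −7.92, comes to lie near *coup-like2*. Nearness is thus not an equal fall. The fitted log2 fold changes ran from −4.95 (NV2.5499) to −3.09 (NV2.14236) among the genes named for *coup-like1*. Among those named for *coup-like2* they ran from −7.92 to −3.15 (NV2.9862), with NV2.13586 at −4.56.

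The COUP genes were not each other's closest match. Their difference was 0.29, which placed *coup-like2* 45th of 16813 genes in the order of likeness to *coup-like1* and *coup-like1* 58th in the order for *coup-like2*. Of *Nvznf845* and the regulators with the same mark, none lay nearer to either. The nearest of these, *Nvznf845*, was at 0.41 from *coup-like1* and 0.45 from *coup-like2*. With 0.05 CPM added instead, a choice made after seeing the data, NV2.12616 and NV2.14236 remained among the 5 nearest to *coup-like1*. Of the 5 nearest to *coup-like2*, 1 remained, NV2.11673, which went from 8.88 ± 1.29 to 0.726 ± 0.141 CPM (log2 fold change −3.63).

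The gene numbers on either side of the COUP genes gave different pictures. Both neighbours of *coup-like1* by number were also called lower, as were 4.23% of all tested genes. NV2.23246 lay between 1.25 and 3.37 CPM in the controls and between 0.147 and 0.370 CPM after knockdown (log2 fold change −3.03, SE 0.33, adjusted p = 4.67e-05, edgeR). NV2.23248 lay between 5.17 and 6.91 CPM in the controls and between 0.720 and 1.07 CPM after knockdown (log2 fold change −2.72, SE 0.18, adjusted p = 4.78e-07, edgeR). In neither gene did the groups overlap, and the same separation occurred in 4.75% of all tested genes.

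The 3 consecutive genes fell by amounts whose 95% intervals overlap. NV2.23246 stood at 3.93% ± 0.97 of the *coup-like1* CPM in controls and 3.78% ± 1.48 after knockdown, and NV2.23248 at 10.7% ± 1.81 and 13.3% ± 5.76 (SD, n = 5). In a wider window chosen after these values were seen, the 4 genes that lie 2 or 3 numbers away had log2 fold changes between −0.02 and 0.34 and were not called (smallest adjusted p = 0.665, edgeR). Next to *coup-like2*, NV2.1479 had a log2 fold change of 0.08 (SE 0.23, adjusted p = 0.973, edgeR) and NV2.1476 had 5 counts over the controls and 0 after knockdown, too few for a test. Whether these numbers follow the order of genes on a chromosome is not given in the sources used here, and whether reads of one transcript were counted for its neighbour was not tested.

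**Figure D4:**
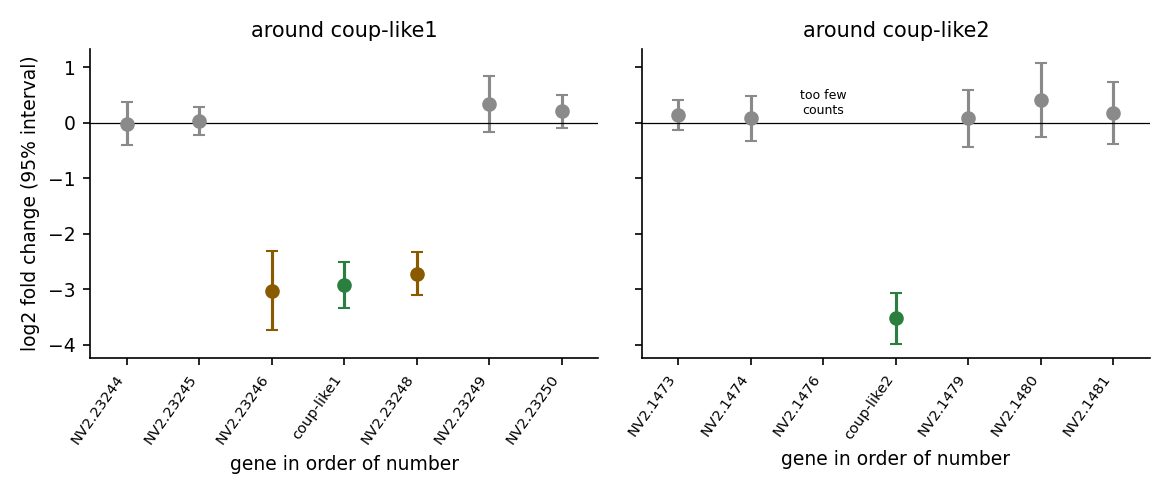
Log2 fold change with its 95% interval (edgeR) for each COUP gene (green) and the 3 genes on each side of it in the order of gene numbers; brown marks neighbours called lower and grey those not called. Around *coup-like1* the adjoining NV2.23246 (−3.03) and NV2.23248 (−2.72) fell with it, and around *coup-like2* none of the 5 tested neighbours was called.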

How the data were processed

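Polyadenylated RNA of 10 whole-embryo libraries was sequenced as paired-end reads of 150 bases, trimmed by the sequencing provider. Salmon, run by the authors on Galaxy, assigned them to Nvec200 gene models, with a version and settings that the sources used here leave unstated. Each deposited file gives an estimated count and a TPM value for every transcript. Estimated counts were summed per gene, rounded and compared by the quasi-likelihood test of edgeR 4.0.16 under R 4.3.3 (TMM, filterByExpr with a minimum of 10 counts, robust glmQLFit, glmQLFTest, Benjamini-Hochberg adjustment over all tested genes), with no term beside condition. Standard errors were obtained from the fold change and the F statistic. A call required an adjusted p no higher than 0.05 and a change beyond 1.5-fold (0.585 on the log2 scale). Ratios of genes within a library used 0.5 added counts and two-sided exact permutation tests, adjusted over 14 tests.

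Groups follow the labels' treatment. The methods state that replicates were paired, and libraries with the same replicate number, which share a batch in the labels, were taken as pairs. Replicates 4 and 5 share the same batch, so the labels do not settle how their libraries pair. Deviations from group means correlated at 0.441, −0.0318, 0.195, 0.137 and 0.567 in pairs 1 to 5. No 2 libraries of a group were duplicates. Nothing states that the libraries of a group came from separate spawnings, so p-values measure only the spread between them. Alternatives were DESeq2 1.42.0, limma-voom (limma 3.58.1), other normalizations and filters, replicate and batch blocks, log2(TPM + 1), and leaving out libraries and pairs.

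Genes named were the COUP genes, *Nvznf845*, the other transcription factors and cnidocyte markers of the study's list, the 2 adjoining gene numbers of each COUP gene and the 5 genes most like each. These members and lists were chosen with earlier results of these data known. No other cell type had markers with gene numbers. The values of 1 gene are not reported here.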

Additional observations from a re-analysis of the deposited data

How the results depend on the processing

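*coup-like1* and *coup-like2* kept their calls under all 28 alternatives each, with log2 fold changes from −3.02 to −2.82 and from −3.68 to −2.54. The smallest fall of *coup-like2* came with log2(TPM + 1), where the added 1 exceeds most of its knockdown values. The replicate block gave −2.95 and −3.51. The number of genes called lower was 656 to 960 over the same alternatives.

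The first *coup-like1* transcript lost its call with the replicate block (−3.40), library size only (−2.93) and no count filter (−2.97), and its range on leaving out single libraries was −3.49 to −2.69. The difference between the falls of the COUP genes ranged from 0.37 to 0.71 on leaving out single libraries and passed without both libraries of replicate 3 (0.67). The transcript share ranged from −9.21 to 1.17 points and was 0.83 without both libraries of replicate 3. The count of passing ratios to other regulators was 0 under the sign flip over pairs (the replicate block) and 9 to 12 on leaving out libraries or pairs. The fall of *coup-like1* beyond *Nvznf845* was −0.36 on the TPM ratio (adjusted p = 0.0940, exact permutation test), and for both COUP genes that call was kept, of the 5 fits without a pair, only without pair 3. *sox2* was not called with library size only or log2(TPM + 1), and *NvfoxE-like* became called without knockdown replicate 2, control replicate 3 or both libraries of replicate 3 (−0.60 to −0.62). *cnido-fos*, not called in any of these fits and ranging down to −0.24 without both libraries of replicate 3, turned to 0.051 without knockdown replicate 2 and to 0.041 without both libraries of replicate 1, and *Nkx2.2D* to −0.0010 in pairs 4 and 5 only. The rank of each COUP gene in likeness to the other moved from 45 to 57 and from 58 to 68 with 0.05 CPM added. The cause of these shifts was not tested.

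Depth limits *coup-like2* after knockdown (10 to 24 counts a library) and the first transcript of *coup-like1* (0 to 80.2 counts). It also limits the ratios to *cnido-jun*, which had a mean of 0.117 CPM after knockdown.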
